A study of Mus musculus with 8 samples.

Results

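The genes described here build and serve the primary cilium, or cause cystic disease when mutated. They were fixed by symbol, as 52 genes of intraflagellar transport (IFT), the Bardet-Biedl syndrome (BBS) proteins, the transition zone, the basal body, the polycystins and related cystic disease genes. All 52 symbols were present among the 23284 rows of the count table, and 51 passed the filter on low counts. Bbs5 did not pass and has no edgeR test here. The RNA came from pancreas cells of mice of a CBA x C57BL/6J strain carrying Dclk1-CreERT, a tamoxifen-inducible Cre recombinase at Dclk1, and a tdtomato reporter. The reporter marks cells in which Cre has acted, so both groups carried the same alleles. Library numbers 1 to 4 were Dclk1+ cells and 5 to 8 Dclk1− cells, 4 libraries in each group. The labels give no age, sex, tamoxifen schedule, sorting gate or number of mice. Each p-value therefore rests on the spread among 8 libraries, which may be technical.

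The primary cilium is a single, non-motile projection that grows from the older centriole and senses fluid flow and signals such as Hedgehog. IFT trains carry cargo along it, with kinesin-2 moving outward and dynein-2 returning. The BBSome ferries membrane proteins, and the transition zone is the gate at its base. In the pancreas, duct cells, islet cells, fibroblasts and smooth muscle cells can carry a primary cilium, while mature acinar cells and lymphocytes generally lack one. Loss of Ift88, Kif3a, Pkd1, Pkd2, Pkhd1 or Bicc1 is known to give cysts in mouse tubules or ducts.

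Total counts ran from 7990777 to 10282911 in Dclk1+ and from 6353841 to 7242084 in Dclk1− libraries, and 1 count was worth 0.102 to 0.193 CPM (read counts scaled to a fixed library size, with TMM factors). Dclk1 itself was at 17.9 to 221 CPM in Dclk1+ and 2.67 to 15.04 CPM in Dclk1− libraries, with Dclk1+ library 4 close to the Dclk1− values (edgeR adjusted p = 0.0503). Markers of other cells also differed between libraries, as summed CPM of lists with 8 to 12 genes in the table. Lymphocyte markers took 49.2 to 884 CPM in Dclk1+ and 2937 to 5713 CPM in Dclk1− libraries. All 12 had no overlap between the groups, with Dclk1− higher (10.9% of all genes). Fibroblast markers took 7045 to 44580 against 1461 to 10210 CPM, with the highest sum in Dclk1+ library 2. Duct markers took 322 to 4360 against 123 to 436 CPM and epithelial markers 55.8 to 1552 against 6.68 to 65.2 CPM, both highest in Dclk1+ library 3. Of the highest Dclk1− duct sum, in library 8, 389 CPM came from Car2, which went against the other tested duct markers. Pericyte and smooth muscle markers took 150 to 2127 against 39.4 to 126 CPM, with the highest sum in Dclk1+ library 1. Macrophage and myeloid markers took 6808 CPM in Dclk1+ library 4, 73.0 to 1019 CPM in the other Dclk1+ libraries and 1500 to 3090 CPM in Dclk1− libraries. Without Ptprc, which all leukocytes express, the myeloid sums were 6206 CPM in Dclk1+ library 4, 49.3 to 912 CPM in the other Dclk1+ libraries and 478 to 1039 CPM in Dclk1− libraries. Acinar markers overlapped widely, at 14300 to 59710 against 3376 to 68070 CPM, as did endothelial markers at 662 to 3513 against 198 to 1288 CPM and endocrine markers at 0 to 505 against 2.20 to 114 CPM. Tuft cell markers, a list that holds Dclk1 itself, took 168 to 631 against 197 to 234 CPM, and 114 to 410 against 190 to 219 CPM without Dclk1. Chat was at 0 in every library, Trpm5 at no more than 0.588 CPM and Pou2f3 at 1.10 to 1.67 against 0 to 1.34 CPM, while Ptgs1 was higher in Dclk1+ cells (edgeR adjusted p = 0.0490). At an edgeR adjusted p under 0.05, 4 of 9 tested duct and 1 of 7 epithelial markers were higher in Dclk1+ cells (2.47% of all genes). So was 1 of 4 tuft cell markers, and 3 of 12 lymphocyte markers were lower (1.02% of all genes). None of the fibroblast, pericyte, endothelial, myeloid, acinar or endocrine markers passed. At an unadjusted edgeR p under 0.05, 8 of 10 fibroblast, 7 of 9 pericyte and 3 of 10 endothelial markers were higher (18.3% of all genes). All 12 lymphocyte markers, Ptprc, Plcb2 of the tuft cell list, Thy1 of the fibroblast list and Car2 of the duct list were lower at that level (13.6% of all genes). The other tested duct markers, 6 of 7 epithelial markers, Dclk1, Ptgs1, Cd14 of the myeloid list and Sst of the endocrine list were higher. No acinar marker had such a p. The part of these cell type differences in the results below was not tested, and fewer cells of a type cannot be told apart from less RNA per cell.

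Many cilium genes share a promoter element, the X-box, which is bound by RFX transcription factors. The letters searched were GTNNCC, then 1, 2 or 3 bases, then NGNAAC, on both strands, in the 250 bases before the start in the RefSeq promoter table (build GRCm38.p6). Of the 52 genes 46 had an entry, and 6 of these (13%) held an X-box, against 4.21% of 27025 genes in the table. The shorter element GTTGCC, which can lie inside an X-box, was in 9 of 46 (19.6%) against 11.8% of all genes. The 6 promoter stretches that hold a match are shown so that the letters can be compared. A match is a description of the letters, not a bound site. They run 5′ to 3′ on the gene's strand in order of the gene's p in the comparison of the groups, with the X-box in capitals.
Ift57: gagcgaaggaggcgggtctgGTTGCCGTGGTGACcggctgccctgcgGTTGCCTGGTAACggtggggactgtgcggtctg
Bbs7: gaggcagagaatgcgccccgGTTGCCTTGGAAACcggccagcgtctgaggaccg
Tctn2: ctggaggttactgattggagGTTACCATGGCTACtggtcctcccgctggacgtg
Tctn3: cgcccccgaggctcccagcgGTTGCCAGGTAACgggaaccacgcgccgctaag
Mks1: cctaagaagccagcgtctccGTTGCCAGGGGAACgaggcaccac
Nphp4: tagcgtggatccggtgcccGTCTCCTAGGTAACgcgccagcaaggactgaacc

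Ift57 alone of these held 2 separate X-boxes, at 87 to 74 and 60 to 48 bases before the start (chr16:49699187-49699266, plus strand). The Bbs7 stretch is at chr3:36613477-36613530 on the minus strand, with the X-box 121 to 108 bases before the start, and that of Tctn2 at chr5:124598667-124598720 on the plus strand, 62 to 49 bases before it. Those of Tctn3 (chr19:40612339-40612391, minus strand) and Mks1 (chr11:87853171-87853214, plus strand) had the X-box 140 to 128 and 24 to 11 bases before the start. Nphp4 had 3 promoter entries, of which 1 held the X-box, 231 to 218 bases before its start (chr4:152477892-152477944, plus strand). Of the 6 genes all but Mks1 had a positive log2 fold change, as did 76.5% of the cilium genes tested and 47.1% of all genes. Ift57 and Bbs7 were at 1.61 and 1.98, Tctn2, Tctn3 and Nphp4 at 1.74, 0.64 and 0.20, and Mks1 at -0.76 with an SE of 0.68. None of the 6 had an adjusted p under 0.05 in edgeR, while DESeq2 called Ift57 and Bbs7 higher. Ift81, Ift80, Ift122, Dync2li1, Tmem67 and Bicc1 had no entry in the table.

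The comparison asked which of these genes differ between Dclk1+ and Dclk1− cells. Bicc1, Cc2d2a, Bbs1 and Dnahc6 were higher in Dclk1+ cells at an adjusted p under 0.05 in edgeR's quasi-likelihood test. These are 4 of the 51 tested (7.84%), where 2.47% of all 13274 genes tested were called higher and 3.49% in either direction. No cilium gene was called lower, where 1.02% of all genes were. Ift140 alone had an unadjusted edgeR p under 0.05 in that direction (13.6% of all genes had one), and DESeq2 and limma-voom each called it lower, as they did 7.08% and 3.58% of all genes. Of the 51 genes 39 (76.5%) had a positive log2 fold change, against 47.1% of all genes, and their median was 1.06 against -0.08. All 4 values of one group lay above all 4 of the other, with Dclk1+ higher, for 12 genes (23.5% against 10.7% of all genes), and with Dclk1− higher for Ift140 (1.96% against 10.9%). An unadjusted p under 0.05 with Dclk1+ higher was found for 18 (35.3% against 18.3%). At an adjusted p under 0.1 in edgeR, 12 were higher (23.5% against 13.1%) and Ift140 was lower (8.05% of all genes were).

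The calls lay close to the threshold, and the adjusted p of the 4 ran from 0.0467 for Cc2d2a to 0.0493 for Bbs1. When 1 library other than Dclk1+ library 4 was left out, edgeR called no gene of the table. In those fits 13 to 23 cilium genes had an unadjusted p under 0.05 with Dclk1+ higher, and 1 or 2 with Dclk1+ lower. Of the 13428 to 13845 genes tested, 3092 to 4005 had one in either direction. The share of all genes with Dclk1+ higher was not computed for these fits. Without Dclk1+ library 4 it called 14 of them higher (12.1% of all genes were) and Ift140 lower (6.23% were). DESeq2 called 17 higher, Bbs5 among them (16.2% of all genes with an adjusted p), and limma-voom 3 (3.07%).

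**Figure D1:**
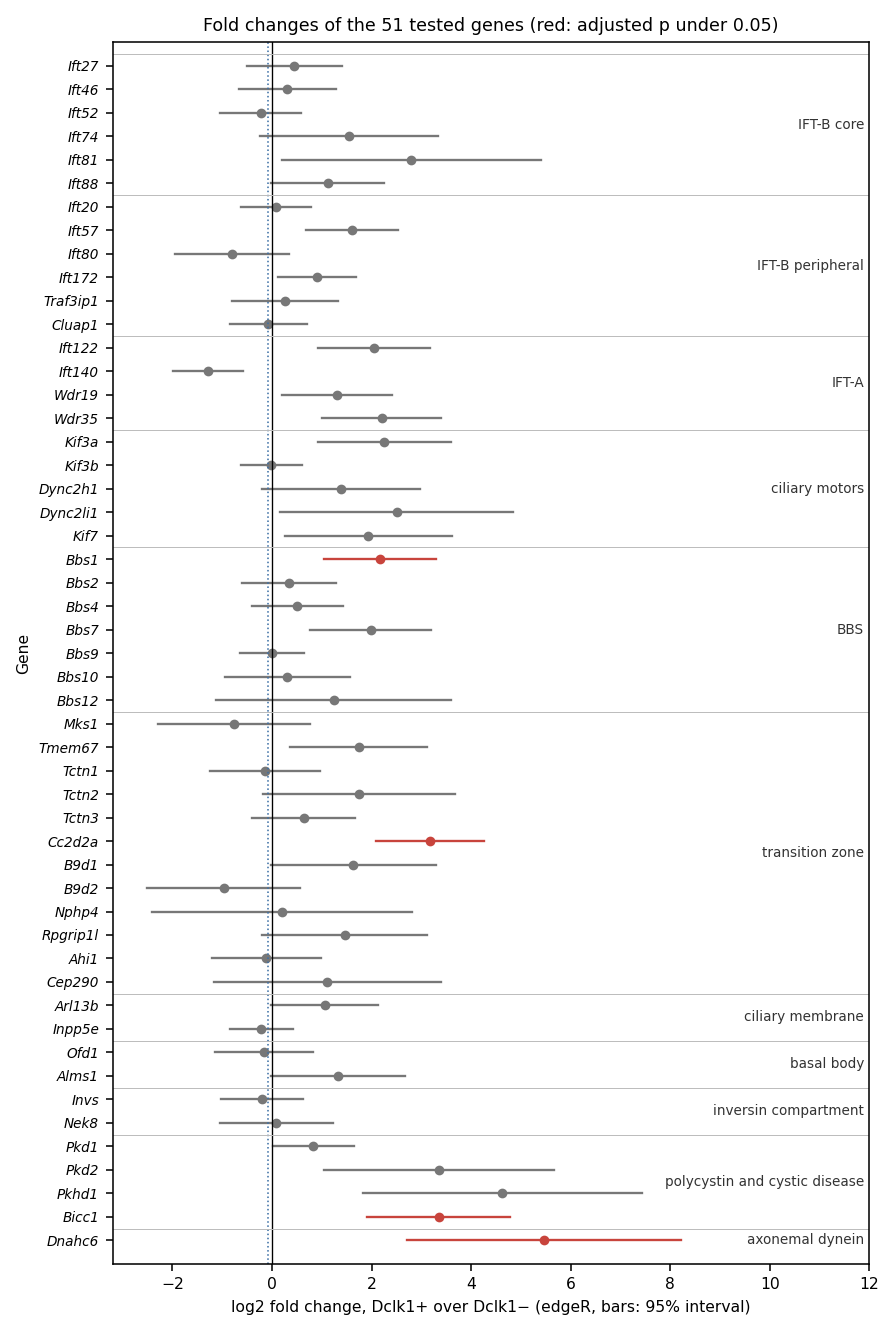
Log2 fold change of each of the 51 tested cilium genes, Dclk1+ over Dclk1−, with its 95% interval from edgeR, grouped by role. Red marks the 4 genes with an adjusted p under 0.05, and the dotted line is the median of all genes tested, -0.08. Dnahc6, Pkhd1, Pkd2 and Bicc1 lie farthest to the right, and Ift140 is the gene whose interval lies wholly below 0.

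The 4 cystic disease genes had a median log2 fold change of 3.36, and all 4 were positive. Bicc1 encodes an RNA-binding protein with KH domains that acts on cilium-related messenger RNAs in renal tubules. It was at 116, 274, 321 and 56.0 CPM in Dclk1+ libraries 1 to 4, and at 15.9, 31.1, 20.5 and 7.85 CPM in Dclk1− libraries 5 to 8. The groups did not overlap, and library 4 was nearest to the Dclk1− values. The log2 fold change was 3.35 ± 0.64 (SE, edgeR adjusted p = 0.0469), and its adjusted p was under 0.05 in 8 of 16 alternatives. Antisense exons of another gene overlap 6.19% of its exon bases in GENCODE M21, and the counting is not stated to use strand.

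Pkhd1 encodes fibrocystin, the large ciliary membrane protein of recessive polycystic kidney disease, which is used by ducts of kidney, liver and pancreas. Its level was 98.6, 29.3, 820 and 121 CPM in the Dclk1+ libraries and 14.4, 16.9, 11.6 and 0.334 CPM in the Dclk1− libraries. Library 3 alone made up most of the Dclk1+ mean of 267 ± 371 CPM (SD, n = 4), and the groups did not overlap. The log2 fold change was 4.62 ± 1.25, but the edgeR adjusted p was 0.0569, and 0.000216 to 0.169 over the alternatives. Without library 3 the log2 fold change was 3.07 (edgeR adjusted p = 0.119), the lowest of the alternatives, which reached 5.06. Library 3 also had the highest sums of duct and epithelial markers, and library 2, where Pkhd1 was lowest among Dclk1+ libraries, the lowest.

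The polycystin genes followed another order. Pkd2, which encodes the calcium-permeable channel polycystin-2, was at 207, 413, 182 and 44.1 CPM in Dclk1+ and 23.4, 48.4, 9.27 and 0.835 CPM in Dclk1− libraries. It was highest in Dclk1+ library 2, which had the most fibroblast marker RNA and the least Pkhd1 of its group, and library 4 lay below Dclk1− library 6. Its log2 fold change was 3.36 ± 1.03 (edgeR adjusted p = 0.0707). Pkd1, which encodes the receptor-like partner polycystin-1, was at 241, 324, 171 and 109 CPM against 104, 139, 115 and 116 CPM. It was also highest in library 2 and overlapped between the groups through library 4, and its log2 fold change was 0.83 ± 0.36 (adjusted p = 0.147 in edgeR). The 95% interval was 1.05 to 5.67 for Pkd2 and 0.02 to 1.64 for Pkd1, and the difference between the genes was not tested. Per kilobase of exon, Pkd2 was at 40.5 CPM in Dclk1+ and 3.92 in Dclk1− cells and Pkd1 at 14.4 and 8.05 (group means).

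**Figure D2:**
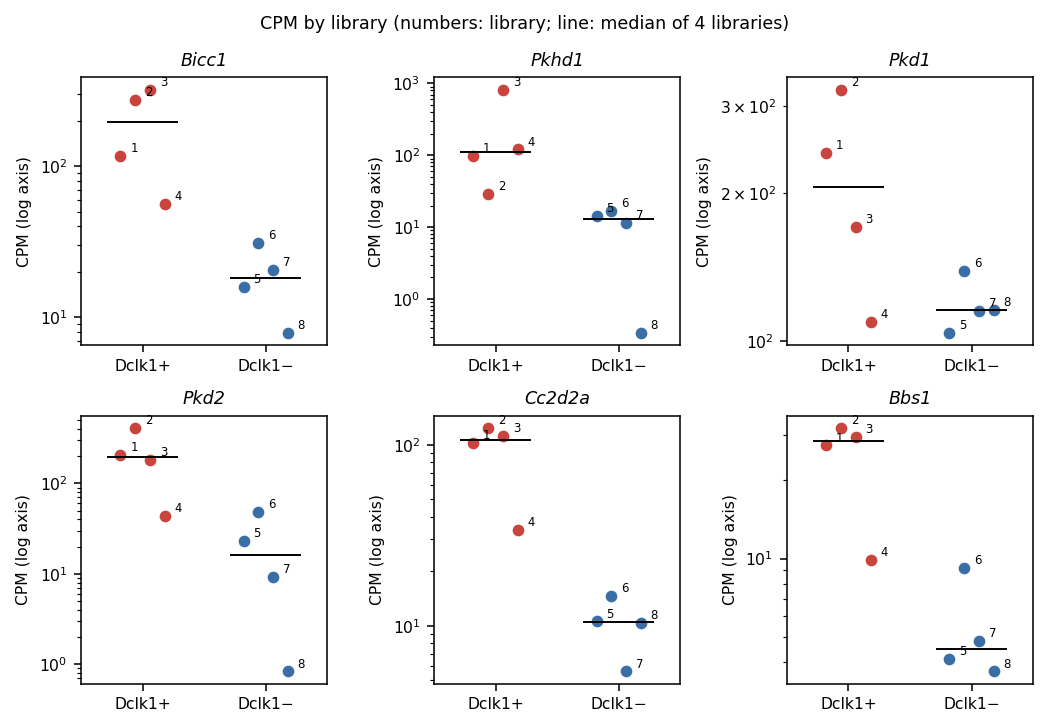
CPM in each library, on a log axis, of the 4 cystic disease genes and of Cc2d2a and Bbs1. Points are libraries with their numbers, red for Dclk1+ and blue for Dclk1−, and lines are group medians. Dclk1+ library 4 is the lowest of its group for all of these but Pkhd1, where library 2 is.

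Other cystic disease genes, taken as a further list of 16 symbols, showed 2 of 15 tested genes higher and 0 lower in edgeR (2.47% and 1.02% of all genes). DESeq2 called 6 higher (16.2% of all genes) and 0 lower (7.08%), and no unadjusted edgeR p under 0.05 was found for a lower gene. The list median was 0.61, and 10 of 15 fold changes were positive (47.1% of all genes). Glis3, a zinc finger factor that localizes to the cilium and whose loss gives renal and pancreatic cysts in mice, was at 36.9, 31.9, 138 and 24.7 CPM against 4.26, 6.67, 4.06 and 4.51 CPM (log2 fold change 3.56 ± 0.61, edgeR adjusted p = 0.0467). Lrp5, a Wnt co-receptor linked to polycystic liver disease, was at 67.6, 28.6, 72.8 and 58.0 CPM against 11.2, 15.5, 6.18 and 3.84 CPM (2.62 ± 0.50, edgeR adjusted p = 0.0469). The groups did not overlap for either gene.

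The transition zone held 1 gene called higher by edgeR among 12 (8.33% against 2.47% of all genes), and DESeq2 also called Tmem67 (16.2% of all genes were called higher). Cc2d2a, a core protein of the Meckel and Joubert syndrome module at the cilium gate, had the smallest p of all 51 genes. Its level was 102, 124, 112 and 34.0 CPM in Dclk1+ libraries and 10.6, 14.6, 5.60 and 10.4 CPM in Dclk1− libraries. The first 3 Dclk1+ libraries were close to each other, and library 4 lay between them and the Dclk1− group. The log2 fold change was 3.17 ± 0.48 (edgeR adjusted p = 0.0467, called in 8 of 16 alternatives). Of the other 11 genes, 7 had a positive and 4 a negative fold change. Tmem67, the Meckel syndrome membrane protein meckelin, was at 24.0 ± 9.03 against 7.14 ± 4.15 CPM without overlap (log2 fold change 1.74 ± 0.61, edgeR adjusted p = 0.0932). The partners of Cc2d2a in the same module spread on both sides of 0, from B9d1 at 1.63 ± 0.74 and Tctn2 at 1.74 ± 0.86 through Tctn1 at -0.14 ± 0.49 (27.5% of its exon bases overlap antisense exons) to B9d2 at -0.97 ± 0.69 on the log2 scale. Rpgrip1l, a scaffold of the zone, was at 1.46 ± 0.74 and Ahi1, the jouberin gene, at -0.11 ± 0.49. Cep290, which links microtubules to the ciliary membrane, was at 25.3 to 42.9 CPM in every Dclk1+ library and in Dclk1− libraries 5 and 6, and at 1.55 and 0.334 CPM in Dclk1− libraries 7 and 8. Those 2 libraries also had the fewest genes detected (14121 and 13958, against 14935 to 16485 in the others) and the most ribosomal Rn45s (34.2% and 26.1% of counts, against 8.90% to 18.3%).

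All 7 tested BBS genes had a positive fold change (47.1% of all genes did), although that of Bbs9 was near 0. EdgeR called 1 of them higher (2.47% of all genes), and DESeq2 called Bbs1, Bbs5 and Bbs7 (16.2%). Bbs1, a BBSome subunit that binds the small GTPase Arl6, was at 27.3, 31.9, 29.4 and 9.89 CPM in Dclk1+ and 4.11, 9.22, 4.83 and 3.67 CPM in Dclk1− libraries. The groups were separated by the small gap between library 4 and Dclk1− library 6. The log2 fold change was 2.17 ± 0.50 (edgeR adjusted p = 0.0493, called in 6 of 16 alternatives). Bbs7, another BBSome subunit, was at 12.8 ± 6.68 against 3.25 ± 1.23 CPM (1.98 ± 0.54, edgeR adjusted p = 0.0577), also without overlap. The remaining BBSome subunits tested were closer to 0, with Bbs2 at 0.34 ± 0.42, Bbs4 at 0.51 ± 0.41 and Bbs9 at 0.00 ± 0.29 on the log2 scale. The 95% interval was -0.64 to 0.65 for Bbs9 and 1.05 to 3.29 for Bbs1, and the difference between these genes was not tested. Bbs5, the subunit that did not pass the filter, was at 0.222, 6.94, 7.6 and 2.0 CPM in Dclk1+ and at 0.588, 0.607, 0.193 and 0 CPM in Dclk1− libraries. Library 1 lay within the Dclk1− range and the other 3 Dclk1+ libraries above it. The chaperonin-like genes Bbs10 and Bbs12, whose products help the BBSome assemble, had log2 fold changes of 0.31 ± 0.56 and 1.24 ± 1.05 and levels of at most 7.71 CPM.

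The IFT-A complex, which drives return transport and the entry of membrane proteins, had 3 genes with a positive and 1 with a negative fold change, and none was called by edgeR. An unadjusted edgeR p under 0.05 was found for all 4, with 3 higher (18.3% of all genes) and 1 lower (13.6%). DESeq2 called Wdr35, Ift122 and Wdr19 higher (16.2% of all genes) and Ift140 lower (7.08%). Of the 16 alternatives 6 called Wdr35 higher, 6 Ift122 and 2 Wdr19. Wdr35, the subunit IFT121, was at 34.8, 36.1, 29.8 and 8.78 CPM in Dclk1+ and 7.93, 4.49, 3.28 and 8.02 CPM in Dclk1− libraries. The groups did not overlap, but library 4 was within 1 CPM of Dclk1− library 8. Its log2 fold change of 2.20 ± 0.53 had an edgeR adjusted p of 0.0503. Ift122 was at 17.7 ± 9.09 against 4.27 ± 1.45 CPM (2.05 ± 0.50, edgeR adjusted p = 0.0508), and Wdr19 had a log2 fold change of 1.31 ± 0.49 (adjusted p = 0.109). Ift140, in the same complex, had a negative fold change. It was at 20.2, 18.6, 13.8 and 24.7 CPM in Dclk1+ libraries and 37.3, 45.2, 40.9 and 65.0 CPM in Dclk1− libraries. The groups did not overlap, with Dclk1− higher. Its log2 fold change was -1.29 ± 0.32 (edgeR adjusted p = 0.0513). The fold change stayed negative in all 16 alternatives, from -1.40 to -1.02, and 4 of them called it.

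**Figure D3:**
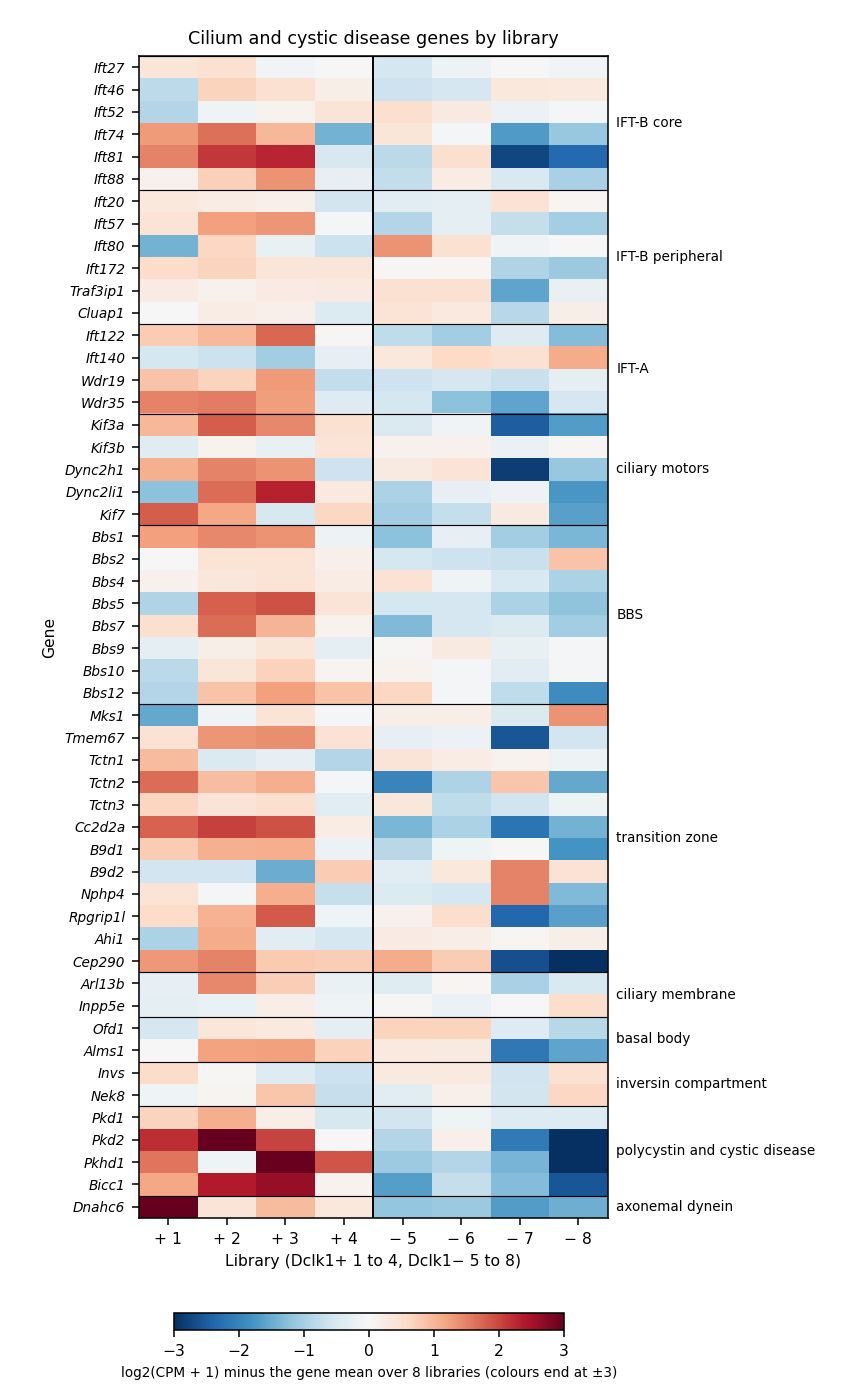
Log2(CPM + 1) of all 52 genes in each library minus the gene's mean over the 8 libraries, by role. Red is above and blue below the mean, and colours end at 3 log2 units. The first 3 Dclk1+ columns are mostly red, Dclk1+ library 4 is paler, Dclk1− libraries 7 and 8 hold the deepest blues, and Ift140 runs against its neighbours.

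The larger IFT-B complex, which drives outward transport, held 12 genes and no call in edgeR. The unadjusted p was under 0.05 for 3 of them, all higher (18.3% of all genes), and DESeq2 and limma-voom called 3 and 0 higher (16.2% and 3.07% of all genes). The 6 core genes had a median log2 fold change of 0.78. Ift81, which forms a tubulin-binding module with Ift74, had the smallest p among these. It was at 17.9, 28.1, 31.4 and 3.78 CPM in Dclk1+ and 2.79, 8.25, 0 and 0.334 CPM in Dclk1− libraries. Dclk1+ library 4 lay below Dclk1− library 6, and the log2 fold change was 2.80 ± 1.16 (edgeR adjusted p = 0.134). Ift74 was at 1.55 ± 0.80 and Ift88, the gene mutated in the Oak Ridge polycystic kidney mouse, at 1.12 ± 0.51 on the log2 scale (adjusted p = 0.208 and 0.161). Ift27, a Rab-like GTPase, was at 0.44 ± 0.43, Ift46 at 0.30 ± 0.44 and Ift52 at -0.22 ± 0.36.

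The 6 peripheral IFT-B genes had a median log2 fold change of 0.17. Ift57, whose 2 X-boxes are shown above, was at 23.6, 43.0, 45.7 and 16.8 CPM in Dclk1+ and 9.11, 14.4, 10.4 and 8.18 CPM in Dclk1− libraries. The groups did not overlap, and the log2 fold change was 1.61 ± 0.41 (edgeR adjusted p = 0.0535, called in 6 of 16 alternatives). Ift172, also without overlap, was at 49.8 ± 5.19 against 26.6 ± 11.1 CPM (0.90 ± 0.35, adjusted p = 0.116). Ift20, which works at the Golgi as well as in the cilium and also serves the immune synapse of T cells, was at 55.5 ± 13.4 against 52.6 ± 13.8 CPM (0.08 ± 0.31). It had the highest level per kilobase of exon of all 52 genes in Dclk1+ cells, at 48.7 CPM. Ift80 was at -0.81 ± 0.51, Traf3ip1 (IFT54) at 0.26 ± 0.48 and Cluap1 (IFT38) at -0.07 ± 0.34 on the log2 scale. Exons of other genes overlap 50% of those of Cluap1, so its counts are uncertain.

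The 5 motor genes had a median log2 fold change of 1.94 and no call in edgeR, where 3 had an unadjusted p under 0.05, all higher (18.3% of all genes). DESeq2 called 3 of them higher and limma-voom 1 (16.2% and 3.07% of all genes). Kif3a, the kinesin-2 motor subunit whose loss removes cilia, was at 39.6, 71.0, 54.1 and 27.0 CPM in Dclk1+ and 14.1, 17.8, 2.70 and 5.34 CPM in Dclk1− libraries. The groups did not overlap, and the log2 fold change was 2.25 ± 0.60 (edgeR adjusted p = 0.0550, called in 6 of 16 alternatives). Kif3b, which pairs with Kif3a and is also used outside cilia, was at 59.3 ± 14.5 against 59.8 ± 6.16 CPM. Its log2 fold change was -0.01 ± 0.27 with a 95% interval of -0.63 to 0.60, against 0.92 to 3.59 for Kif3a. The difference between these genes was not tested. The dynein-2 heavy chain gene Dync2h1 was at 26.1 CPM in Dclk1+ library 4, within the Dclk1− range of 4.83 to 54.3 CPM, and at 86.2 to 114 CPM in the other 3 (1.39 ± 0.71, adjusted p = 0.206). Its light intermediate chain gene Dync2li1 was at 2.50 ± 1.04 and Kif7, the Hedgehog kinesin of the cilium tip, at 1.94 ± 0.75 on the log2 scale (adjusted p = 0.135 and 0.115). Antisense exons overlap 20.3% of those of Kif7.

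The small groups at the ciliary membrane, basal body and inversin compartment held no call in edgeR, DESeq2 or limma-voom, and no unadjusted edgeR p under 0.05. Arl13b, a small GTPase of the ciliary membrane, was at 13.2, 44.3, 27.0 and 13.6 CPM against 11.9, 16.4, 7.53 and 11.2 CPM. The groups overlapped through Dclk1+ libraries 1 and 4, and the log2 fold change was 1.06 ± 0.48 (edgeR adjusted p = 0.161). Its partner Inpp5e, a phosphoinositide phosphatase, was at -0.21 ± 0.28, with 21.1% of its exon bases overlapped by antisense exons. Alms1, the Alström syndrome gene of the centrosome, was at 32.1, 75.4, 76.7 and 52.4 CPM against 39.4, 38.5, 6.37 and 10.02 CPM. Dclk1− libraries 5 and 6 lay above Dclk1+ library 1, and the low values were in Dclk1− libraries 7 and 8 (1.32 ± 0.60, adjusted p = 0.163). Ofd1, a centriole length regulator, was at -0.17 ± 0.44. Invs, which encodes inversin, was at 54.8, 37.9, 28.1 and 23.2 CPM against 44.4, 45.6, 24.0 and 50.9 CPM. The groups overlapped fully (-0.20 ± 0.37, adjusted p = 0.741), as they did for Nek8, the kinase of the same compartment (0.09 ± 0.51).

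Dnahc6, an inner arm dynein heavy chain of motile cilia, had the largest fold change of the 51 genes and one of the lowest levels per kilobase, ranking 51 of 52 in Dclk1+ cells at 1.06 CPM. It was at 42.4, 3.16, 5.18 and 3.0 CPM in Dclk1+ libraries and at 0.441, 0.485, 0 and 0.167 CPM in Dclk1− libraries. Library 1 stood far above the other 3 Dclk1+ libraries, and the groups did not overlap. The log2 fold change was 5.46 ± 1.23 (edgeR adjusted p = 0.0492). Without library 1 it was 3.65 with an edgeR adjusted p of 0.0979, and DESeq2 gave it no p because library 1 passed its limit for a count outlier.

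Motile cilium genes were taken as a list of 38 symbols, of which 36 were in the table and 14 could be tested. EdgeR called 1 higher and 1 lower (2.47% and 1.02% of all genes). Dnahc7b, another inner arm dynein chain, was at 19.0, 26.2, 45.1 and 7.11 CPM against 2.06, 1.70, 1.74 and 0.167 CPM (log2 fold change 4.08 ± 0.78, edgeR adjusted p = 0.0469). It has close paralogs, so its counts are uncertain. Dnahc8, an outer arm chain best known from sperm, was at 31.0, 11.02, 15.5 and 26.6 CPM against 218, 130, 66.1 and 123 CPM (-2.68 ± 0.47, edgeR adjusted p = 0.0467). Of the 35 genes with a count in any library, 12 were highest in Dclk1+ library 1 and 11 in Dclk1+ library 3. Tekt2, a tektin of axonemal microtubules, was at 13.2 CPM in library 1, 2.45 in library 2 and no more than 0.333 in any other. Foxj1, the master regulator of motile cilia, was at 8.43, 0.714, 16.1 and 6.22 CPM against 0.441, 1.94, 0 and 0 CPM (3.61 ± 1.31, edgeR adjusted p = 0.0987). Tekt2 and Foxj1 were chosen after their values were seen. Hydin and Spag17, of the central pair of the axoneme, reached at most 1.89 CPM in any library, and Ccdc113 was at 0 in all 8.

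**Figure D4:**
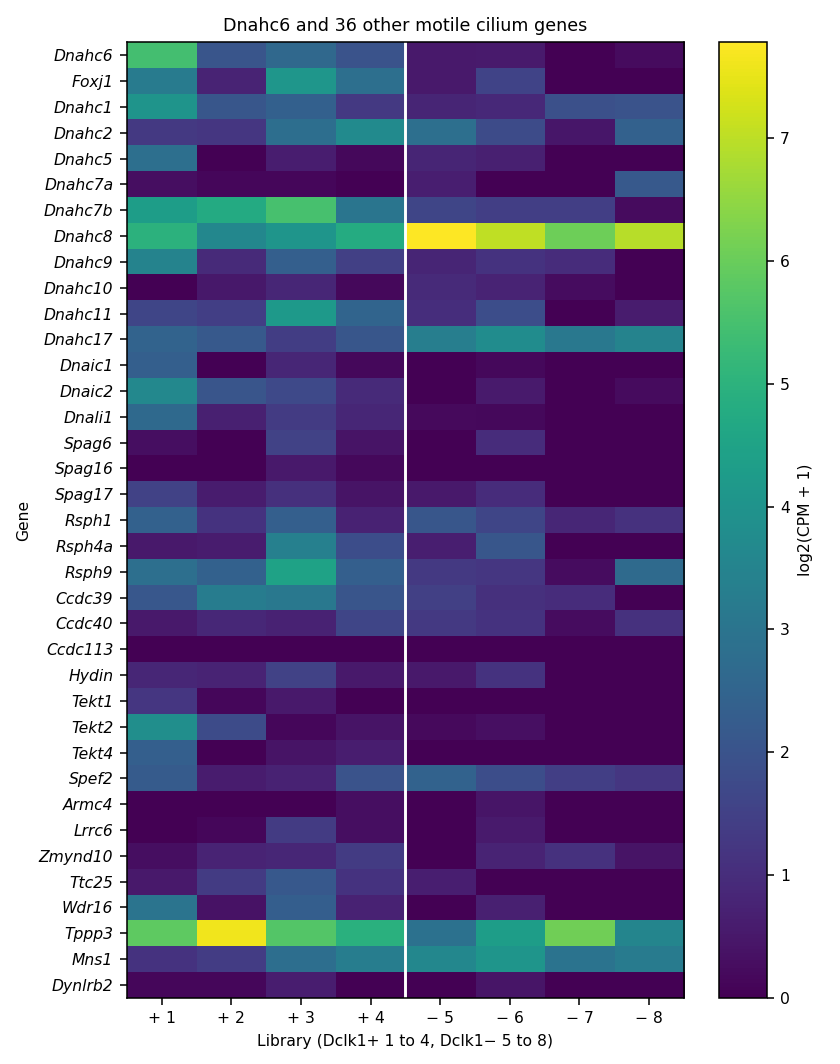
Log2(CPM + 1) of Dnahc6 and of the 36 motile cilium genes found in the table, by library. Dclk1+ libraries 1 and 3 hold most of the higher values, Dclk1− libraries 7 and 8 have 21 genes each at 0 counts, and Dnahc8 is brightest in the Dclk1− libraries.

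A further list of 41 primary cilium genes held 38 in the table and 35 tested, with 1 called higher and 0 lower in edgeR. That 1 of 35 (2.86%) is close to the 2.47% of all genes called higher. The unadjusted p was under 0.05 for 13 higher and 2 lower genes (18.3% and 13.6% of all genes), and DESeq2 called 13 and 2 (16.2% and 7.08%). Their median log2 fold change was 0.84, and 26 of 35 were positive (47.1% of all genes). The call was Wdr34, an intermediate chain of dynein-2, at 14.9, 9.29, 11.8 and 8.00 CPM against 2.94, 1.82, 2.32 and 3.17 CPM (2.10 ± 0.46, edgeR adjusted p = 0.0492). Here all 4 Dclk1+ libraries, library 4 included, lay above all Dclk1− libraries.

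No RFX factor, the family that binds the X-box shown above, was called in either direction in edgeR. Of 8 tested cilium regulators edgeR called 0, with 2 higher and 3 lower at an unadjusted p under 0.05 (18.3% and 13.6% of all genes). DESeq2 called 2 higher and 3 lower (16.2% and 7.08%), and limma-voom 0 and 2 (3.07% and 3.58%). Rfx5, which is best known for control of MHC class II genes, had the smallest p. It was at 33.7, 28.2, 33.7 and 46.4 CPM in Dclk1+ and 91.5, 75.1, 63.9 and 98.4 CPM in Dclk1− libraries, without overlap (log2 fold change -1.21 ± 0.29, edgeR adjusted p = 0.0503). Rfx1 was at 17.0 ± 5.02 against 42.5 ± 3.66 CPM (-1.32 ± 0.31, adjusted p = 0.0503), and Rfx3, the family member most tied to primary cilia, at 25.9 ± 13.9 against 46.6 ± 29.5 CPM (-0.85 ± 0.60, adjusted p = 0.351). Rfx2 had a log2 fold change of 0.76. Rfx1, Rfx2 and Rfx3 were chosen after their values were seen. Lymphocyte markers, which were higher in the Dclk1− libraries, moved in the same direction as Rfx5 and Rfx1, and their part in these differences was not tested.

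Within the Dclk1+ group the libraries did not carry the same cilium genes at the same level. Library 4 was lowest of its group for 27 of the 52 genes and highest for 5 (Ift52, Traf3ip1, Ift140, Kif3b and B9d2). Library 1 was lowest for 18 and highest for 7, including Kif7, Tctn1, Tctn2 and Dnahc6. Library 2 was highest for 18 and lowest for 2 (Traf3ip1 and Pkhd1), and library 3 highest for 22 and lowest for 5. The mean log2(CPM + 1) over all 52 genes was 4.25, 4.68, 4.70 and 3.84 in Dclk1+ libraries 1 to 4 and 3.59, 3.75, 3.11 and 3.01 in Dclk1− libraries 5 to 8. Over all genes tested the same mean was 4.31 to 4.48 and 4.13 to 4.42. Library 2, which had the highest fibroblast sum, had a cilium gene mean within 0.1 log2 units of that of library 3, which had the highest duct sum. The duct sum of library 2, 322 CPM, was the lowest of its group. Only Dclk1− library 8 had a higher duct sum among Dclk1− libraries, and 389 of the 436 CPM in library 8 came from Car2. The relation of the cilium gene mean to these marker sums was not tested. Library 4 had the lowest Dclk1, the lowest fibroblast sum and the highest myeloid and lymphocyte sums of its group.

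**Figure D5:**
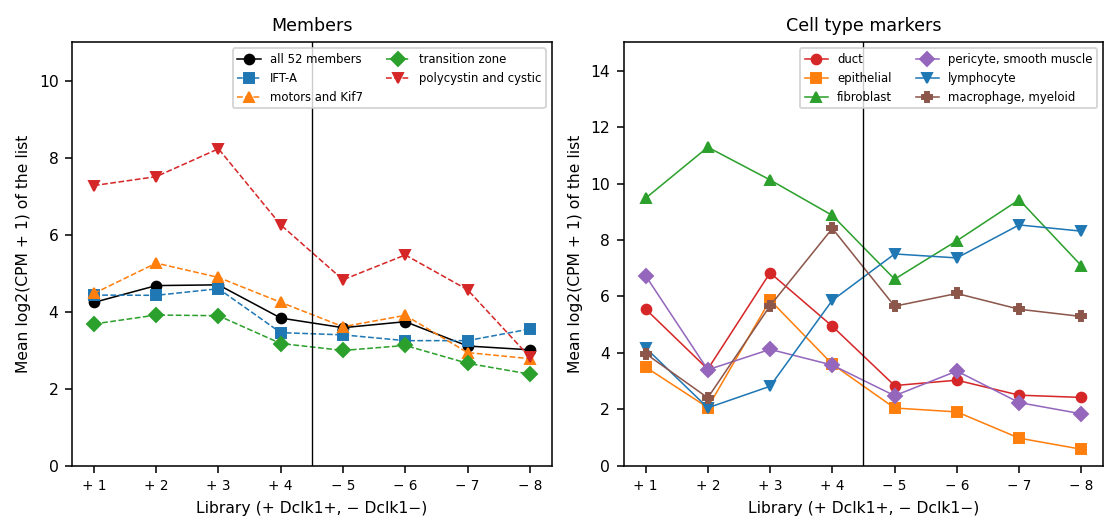
Mean log2(CPM + 1) of the cilium genes and 4 of their role groups (left) and of 6 cell type marker lists (right) in each library. Lines only join the points of one list. The cilium mean of the 52 genes lies between 3.84 and 4.70 in Dclk1+ and between 3.01 and 3.75 in Dclk1− libraries, and Dclk1+ library 4 is the lowest of its group while its myeloid markers are the highest of all 8.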

How the data were processed

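RNA of 4 Dclk1+ and 4 Dclk1− libraries was measured, grouped by sample titles. The deposited values are raw read counts per gene symbol, 1 column per library. Per the labels' protocols, polyA RNA of high integrity was amplified with the Ovation RNA-Seq System V2 before TruSeq preparation. All libraries name mm9, HTSeq 0.6.1 and bcl2fastq 1.8.4, per the submitters' processing notes. Library 5 names TopHat2 2.0.4 with Bowtie2 2.0.0, the remaining 7 TopHat with Bowtie 0.12.7. The annotation was not given in the sources used here, nor was the strand setting. No 2 libraries of a group had counts within sampling noise of each other. Some Dclk1− libraries were closer than others, with a chi-square per degree of freedom of 21.1 for 5 and 6 and 52.2 for 7 and 8. The remaining Dclk1− pairs were at 177 to 262. The labels do not state whether the closer libraries share a source, so the Dclk1− libraries may not be independent.

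Counts were fitted in R 4.3.3 with edgeR 4.0.16, using filterByExpr (minimum count 10, minimum total 15), TMM, a group-only model and the quasi-likelihood F test, with Benjamini-Hochberg adjustment over 13274 genes and a threshold of 0.05. SE values come from the F statistic, and a fold change is on the log2 scale. Alternatives used DESeq2 1.42.0, limma 3.58.1 (voom), RLE and upper quartile scaling, other filters, removal of Rn45s, and each library left out. The fits were also run on simulated counts with large fold changes set in advance, and without cell mixtures or outlier libraries. That run cannot show how well the calls given here hold. Exon lengths come from GENCODE M21 and promoters from RefSeq, both of another build than mm9. Cilium genes, lists and the rule for named genes (all called genes, the cystic disease genes, Dnahc6, the smallest p of each other role group, and from each further list up to 3 called genes or the smallest p) were chosen with earlier results of these data known. From the lists, 8 symbols were not matched in the table and were not used here.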

Additional observations from a re-analysis of the deposited data

Results flagged for a closer look

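Among 102 groups of 4 values (51 tested genes in 2 groups), 7 had a library that stood apart from the other 3 by Dixon's criterion at the 95% level on log2(CPM + 1), where chance flags about 1 in 20 groups. Dclk1+ library 4 was the low library for Wdr35 (8.78 CPM, others 29.8 to 36.1), Bbs1 (9.89 CPM, others 27.3 to 31.9) and Cc2d2a (34.0 CPM, others 102 to 124). Dclk1+ library 2 was low for Traf3ip1 by a small margin (16.2 CPM, others 17.6 to 17.8). Dclk1− library 8 was high for Bbs2 (40.3 CPM, others 13.3 to 14.7) and low for Pkhd1 (0.334 CPM, others 11.6 to 16.9), and Dclk1− library 7 was low for Tmem67 (1.16 CPM, others 7.51 to 10.2).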

How the results depend on the processing

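All alternatives but the joint removal of Dclk1− libraries 7 and 8, which was chosen after seeing the data, were planned. Over all genes 328 were called higher and 135 lower. The counts were 665 and 193 with RLE factors, 225 and 96 with upper quartile scaling, 793 and 264 with no low count filter, 819 and 226 with a stricter filter, 2549 and 1111 with DESeq2, 407 and 475 with limma-voom, and 543 and 151 without Rn45s. They were 0 and 0 in edgeR without Dclk1− libraries 7 and 8, where 3588 genes had an unadjusted p under 0.05. Leaving out 1 library gave 0 to 1640 and 0 to 841. In the same order of settings, the cilium genes called higher numbered 8, 2, 9, 9, 17, 3, 7 and 0 in place of 4, and 0 to 14 with 1 library left out. Ift140 was the 1 gene called lower with the stricter filter, DESeq2, limma-voom and without Dclk1+ library 4 (range 0 to 1). Among the other primary cilium genes, 3, 3, 2, 13 and 3 were higher with RLE, no filter, the stricter filter, DESeq2 and without Rn45s, in place of 1, and 0 with limma-voom and without libraries 7 and 8 (range 0 to 11 with 1 library left out). DESeq2 called 2 of them lower (range 0 to 1). The other cystic disease genes had 4, 5, 4 and 6 higher with RLE, no filter, the stricter filter and DESeq2, in place of 2, and 0 without libraries 7 and 8 (range 0 to 6). For the transcription factors DESeq2 called 2 higher (range 0 to 1), and 2, 1, 2, 3 and 2 were lower with RLE, no filter, the stricter filter, DESeq2 and limma-voom (range 0 to 2). For the motile cilium genes DESeq2 called 9 higher and 2 lower (16.2% and 7.08% of all genes), in place of 1 and 1 of 14 in edgeR. DESeq2 was run without the low count filter, so the motile cilium genes it tested were not the same 14. None of the motile cilium genes was higher with limma-voom, and 0 were called in either direction without libraries 7 and 8 (ranges 0 to 2 and 0 to 1).

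The median log2 fold change of the cilium genes was 0.80 to 1.40 over all alternatives, and 0.84 to 1.40 with 1 library left out. The transition zone median of 0.88 became 1.32 with the stricter filter and 1.43 with limma-voom, and the basal body median of 0.58 became 0.035 without libraries 7 and 8. With 1 library left out the medians ran from 1.46 to 2.16 for the motors, 0.48 to 1.29 for BBS genes and 3.65 to 6.03 for Dnahc6, which could not be tested by DESeq2 or with the stricter filter. The inversin compartment median (-0.05) changed sign under several alternatives. No paired analysis was run. The column headers number the libraries within each group, and the labels do not state whether equal numbers mark a pair. The cause of these changes was not tested. Since 3 counts amount to 0.306 to 0.579 CPM, values below that do not separate libraries.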
